A study of Arabidopsis thaliana with 12 samples.

Results

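The 4 genes NdhS (AT4G23890), PSB27 (AT1G03600), FZL (AT1G03160) and CCB3 (AT5G36120) are nuclear genes whose products act in the thylakoid membranes of the chloroplast. They were found as the probes whose platform annotation named 1 gene only, that gene being one of the 4. Each had 1 such probe, so they are 4 of 691 named loci, and 0 further probes named any of them among several genes. The 4 were chosen by a proposal that had the toc160 and WT intensities of these same arrays in view. Their levels in toc160 and WT are therefore a description, and no test of that contrast is given for them.

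The arrays measured total RNA of Arabidopsis thaliana, ecotype Wassilevskija, in 2 groups of 6. The first group is the toc160 mutant, described by the submitters as impaired in importing proteins through the chloroplast's outer envelope. The second is the wild type (WT) of the same ecotype, and no treatment is named for either. The labels state no allele, tissue, plant age, light regime or number of plants. Toc160 is a synonym of TOC159, the receptor that binds precursor proteins at the outer envelope, in the RefSeq gene table. No probe named TOC159 alone, so the mutated gene was not analysed here. Of 17 marker genes fixed for seed, green leaf, root and flower, 0 were named alone by a probe, so the tissue could not be checked.

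The thylakoid is the inner chloroplast membrane that carries the light reactions. Most of its proteins are encoded in the nucleus, made in the cytosol as precursors and imported through the envelope receptors before they reach the membrane or the lumen inside it. NdhS is a subunit of the chloroplast NADH dehydrogenase-like (NDH) complex, where it forms part of the docking site for ferredoxin, and the complex returns electrons to plastoquinone in cyclic flow around photosystem I. PSB27 is a lumenal protein that binds photosystem II during its assembly and repair. FZL is a dynamin-like GTPase of plastid membranes, related to the FZO proteins of mitochondrial fusion and needed for normal thylakoid layout. CCB3 belongs to the CCB factors that attach a heme to cytochrome b6 of the cytochrome b6f complex.

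Values are deposited intensities on the authors' linear scale, which ends at a ceiling of 100. Array medians lay between 0.627 and 0.646 in toc160 and between 0.477 and 0.551 in WT, so most probes read higher on toc160 arrays before any normalization. Each group held 3 couples of near-duplicate arrays, replicates 1 with 2, 3 with 4 and 5 with 6. Spearman's rho was at least 0.983 inside a couple and at most 0.945 between couples of a group. Each couple is called a replicate pair, and errors are the SD over 3 pair averages. The pairs come from the data and not from the labels, nothing says that replicates were separate plants, and p-values measure only the spread between these samples.

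NdhS read higher on every toc160 array than on any WT array. In toc160 its intensity was 11.7, 11.4, 12.5, 12.7, 11.97 and 11.1 on replicates 1 to 6. In WT it was 8.53, 8.50, 8.73, 8.90, 7.19 and 6.99. The groups did not overlap, and the lowest WT values were those of replicates 5 and 6. The means were 11.9 ± 0.609 in toc160 and 8.14 ± 0.921 in WT (SD, n = 3 pairs). Of all 691 loci, 17.8% likewise had every toc160 array above every WT array as deposited, and 3.62% did after quantile normalization, which gives every array the same distribution of values. In such bulk RNA, a change in the share of a cell type and a change in RNA per cell cannot be told apart.

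The ratio of NdhS in toc160 over WT was 1.36 in replicates 1 and 2, 1.43 in replicates 3 and 4 and 1.63 in replicates 5 and 6. NdhS was thus higher in toc160 in each pair, as 65.8% of loci were as deposited and 28.5% after quantile normalization. By order alone, which no rescaling of an array changes, the NdhS probe ranked between 22 and 26 from the brightest of 3439 probes on toc160 arrays and between 41 and 48 on WT arrays. The 2 arrays of a pair differed by at most 1.08 times for NdhS.

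FZL had its highest values on replicates 1 and 2 in both genotypes. In toc160 its intensity was 3.73, 4.05, 2.61, 2.54, 2.34 and 2.26 on replicates 1 to 6. In WT it was 2.69, 2.91, 1.66, 1.66, 2.17 and 2.07. The groups overlapped: toc160 replicates 3 to 6 lay below WT replicates 1 and 2. The means were 2.92 ± 0.852 in toc160 and 2.19 ± 0.575 in WT (SD, n = 3 pairs). Within pairs FZL was higher in toc160 each time, by ratios of 1.39, 1.55 and 1.08, the smallest being that of replicates 5 and 6. Of all loci, 65.8% were likewise higher in each pair as deposited and 28.5% after quantile normalization. On the log2 scale as deposited, FZL was 0.12 higher in replicates 5 and 6. The median of all loci, over the 3 pairs, was 0.33.

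PSB27 had no single direction over the 3 pairs. In toc160 its intensity was 1.59, 1.83, 2.69, 2.27, 2.55 and 2.50 on replicates 1 to 6. In WT it was 1.95, 1.92, 2.29, 2.08, 2.13 and 2.002. The toc160 arrays spread on both sides of the WT arrays, with replicates 1 and 2 below all of them. The ratio of toc160 over WT was 0.885 in replicates 1 and 2, 1.14 in replicates 3 and 4 and 1.22 in replicates 5 and 6. The means were 2.24 ± 0.457 in toc160 and 2.06 ± 0.125 in WT (SD, n = 3 pairs), a difference smaller than the SD within toc160.

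CCB3 gave no usable level. Its probe was listed at 0 on toc160 replicates 1 to 4, at 0.00573 on toc160 replicate 5 and at 0.0172 on toc160 replicate 6. In WT it was listed at 0 on replicates 1, 2, 3 and 5, at 0.00285 on replicate 4 and at 0.00423 on replicate 6. All 12 values lay under 0.0364, the 1st percentile of positive intensities, which served as the floor below which values were not told apart. In all, 35 of the 691 loci shared this. No fold is given for it, and the reading does not tell an unexpressed gene from a probe that gave no signal.

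**Figure D1:**
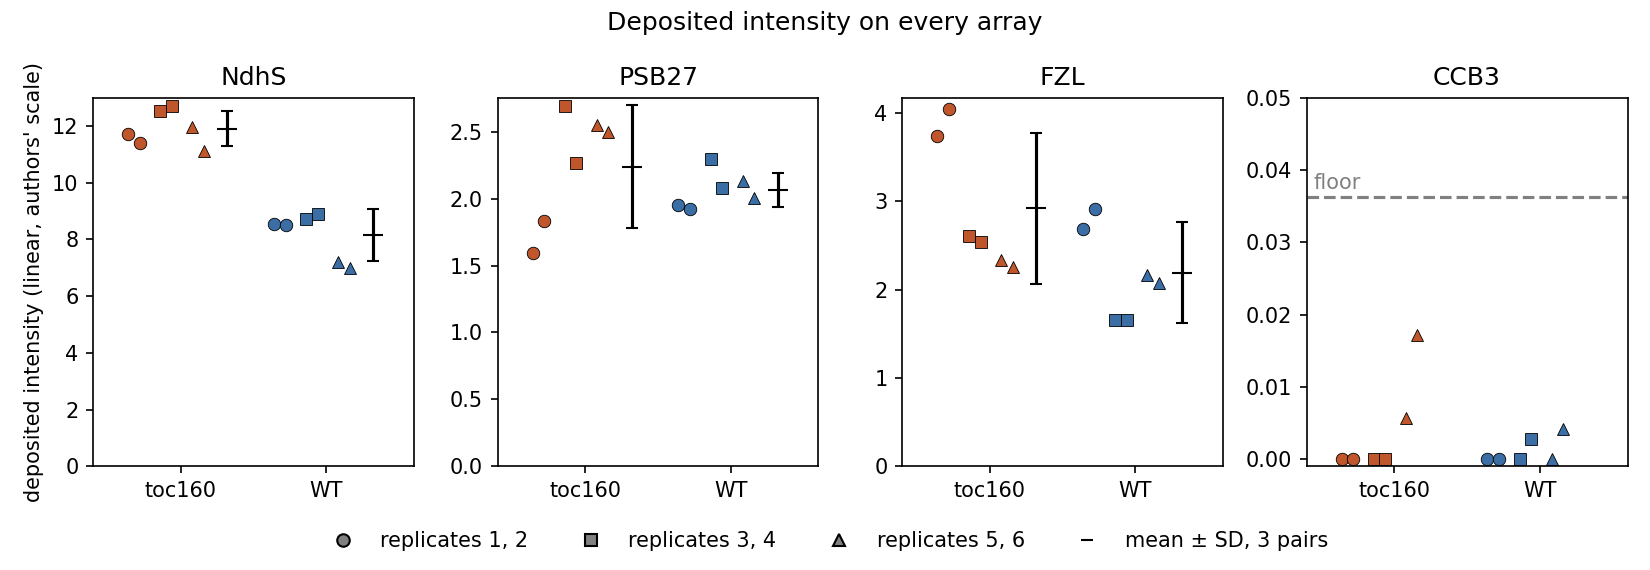
Deposited intensity (linear, authors' scale) of NdhS, PSB27, FZL and CCB3 on each toc160 and WT array, with marker shapes for the replicate pairs; bars are the mean ± SD of 3 pair averages, and CCB3 has none because its values lie under the floor (dashed, 0.0364). NdhS values do not overlap between groups, those of FZL and PSB27 do, and FZL is highest on replicates 1 and 2 in both genotypes.

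How large each difference was depended on how the arrays were scaled. After quantile normalization the log2 difference of toc160 minus WT was 0.86 ± 0.14 for NdhS (SD of the 3 pairs), with pair values of 0.70, 0.89 and 0.97. As deposited it was 0.55, where the median of all loci was 0.33. With each array centred on its median it was 0.23, and with cyclic loess, which removes differences that follow brightness, it was 0.67. NdhS was higher in toc160 in all 3 pairs under each of these 4 scalings. With median centring its pair values were 0.04, 0.18 and 0.46, the lowest being that of replicates 1 and 2. The share of all loci higher in all 3 pairs was not counted for median centring or cyclic loess. After quantile normalization 6 of the 691 loci had a larger difference than NdhS, against 118 with median centring.

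FZL had a log2 difference of 0.47 ± 0.26 after quantile normalization (SD, n = 3 pairs). It was 0.08 with median centring, 0.36 with cyclic loess and 0.41 as deposited. With median centring its value in replicates 5 and 6 was -0.13, below WT, while the other pairs stayed above. PSB27 had a log2 difference of 0.12 ± 0.34 after quantile normalization. It was -0.23 with median centring, 0.03 with cyclic loess and 0.10 as deposited, so its direction turned with the scaling. As deposited, PSB27 gained less than the median locus, by 0.24 on the log2 scale, and FZL lay 0.07 above that median.

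NdhS, FZL and PSB27 are all bright, at places 7, 27 and 35 by mean level among the 691 loci. The median log2 difference of the 69 brightest was 0.16 after quantile normalization, against 0.03 for all loci, and 0.11 with cyclic loess, against 0.02. It was 0.16 as deposited, against 0.33 for all loci, and -0.16 with median centring, against 0.01. The brightest loci thus lay above all loci under 2 scalings and below them under 2, a difference that was not tested. Among these 69, 4 had a larger difference than NdhS after quantile normalization and 9 did as deposited. For FZL the counts were 19 and 21, and for PSB27 they were 41 and 42, past the middle of the 69. The part that brightness has in the members' differences was not tested.

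**Figure D2:**
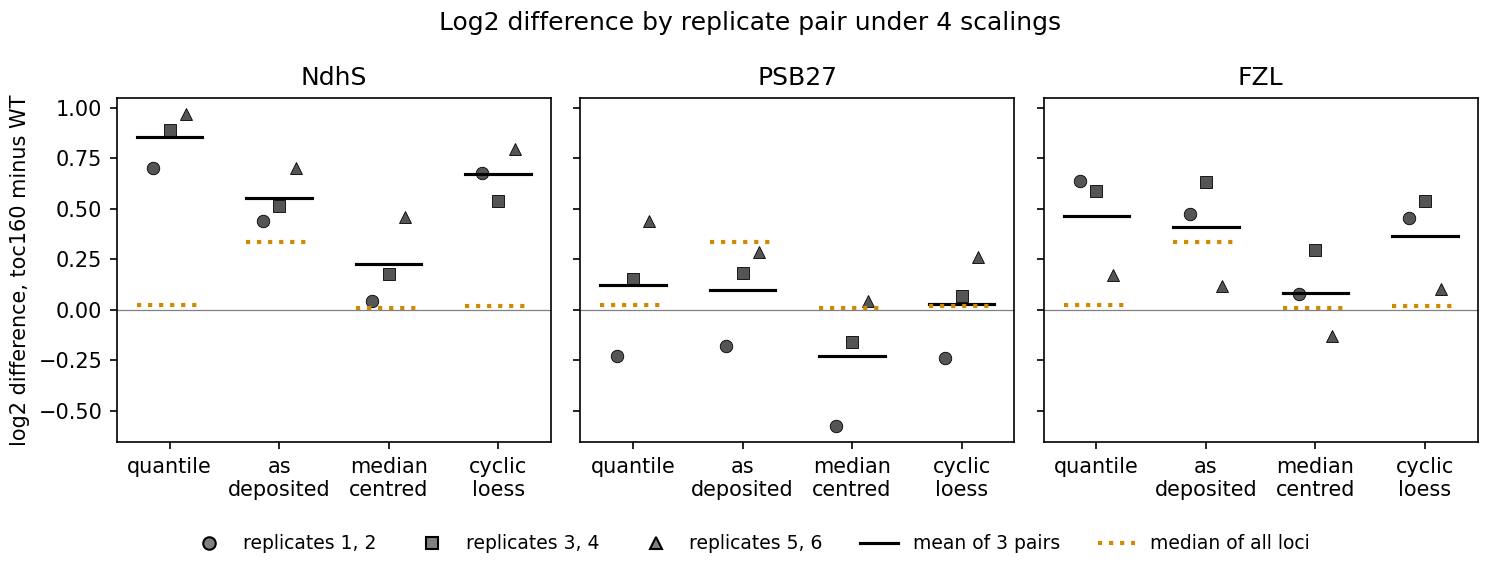
Log2 difference of toc160 minus WT for NdhS, PSB27 and FZL in each replicate pair (markers) under 4 scalings, with the mean of 3 pairs (black line) and the median of all 691 loci (dotted). NdhS lies above zero in every pair under every scaling shown, PSB27 spans zero in each, and FZL falls below zero only in replicates 5 and 6 with median centring.

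Across all loci, limma after quantile normalization called 72 of 691 at an adjusted p of 0.05 (10.4%), 34 higher in toc160 (4.92%) and 38 lower (5.5%). Of the calls 47.2% were higher in toc160, a share that was 23.6% with median centring, 41.5% with cyclic loess and 91.1% as deposited. All these fits counted near-duplicate arrays as separate samples. With near-duplicate arrays averaged and the pair as a block, 12 loci were called (1.74%), 0.289% of loci as higher and 1.45% as lower. With the replicate number as a block over all 12 arrays, 196 were called (28.4%). Nothing is read from these shares for NdhS, FZL and PSB27, which were chosen with this contrast in view.

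The replicate pairs were also in view when the genes were chosen, so their levels by pair are given as a description, with no test. FZL averaged over toc160 and WT was higher in replicates 1 and 2 than in replicates 3 and 4 by 0.74 on the log2 scale, and than in replicates 5 and 6 by 0.69. This was larger than its toc160 minus WT difference of 0.47. Replicates 1 and 2 exceeded the mean of the other pairs by 0.72 after quantile normalization, 0.63 as deposited, 0.71 with median centring and 0.69 with cyclic loess. Differences between pairs were common over all loci. By limma's F-test on pair averages, 42.4% of loci had an unadjusted p under 0.05, and 13.9% an adjusted p under 0.05.

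For NdhS the largest difference between pairs was 0.16 on the log2 scale, between replicates 3 and 4 and replicates 1 and 2. For PSB27 the averages of replicates 3 and 4 and of replicates 5 and 6 were each 0.29 above that of replicates 1 and 2. The normalized log2 level of PSB27 was 0.80, 1.29 and 1.42 in the 3 pairs of toc160, and 1.03, 1.13 and 0.98 in those of WT, a narrower range. Whether the genotypes differ in this was not tested.

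Other genes of the same pathways came from 5 lists of thylakoid genes with 108 entries: the NDH complex and cyclic flow, photosystem II assembly, cytochrome b6f assembly, photosystem I assembly, and membrane formation. Probes naming 1 gene measured 11 entries, the 4 genes above and 7 more. Of these 7, 0 were higher and 0 lower in toc160 by limma at an adjusted p of 0.05, and 1 had an unadjusted p under 0.05. Over all loci 4.92% were called higher and 5.5% lower, and 21.3% had an unadjusted p under 0.05. Their median log2 difference was -0.09, against 0.03 for all loci. As deposited, 2 of the 7 passed, where 42.3% of all loci did. Lists of plastid division and outer-envelope import had 0 measured entries.

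NdhN and CRR41 were the other measured genes of the NDH list, and neither passed. NdhN, a subunit of the stromal arm of the complex, averaged 0.649 ± 0.0876 in toc160 and 0.543 ± 0.132 in WT (SD, n = 3 pairs). Its log2 difference was -0.04 (SE 0.13, limma adjusted p 0.926) after quantile normalization and 0.27 as deposited. CRR41, a stromal factor for assembly of that arm, averaged 0.592 ± 0.132 in toc160 and 0.528 ± 0.0928 in WT. Its log2 difference was -0.18 (SE 0.15, limma adjusted p 0.589), and 0.15 as deposited. The difference between NdhS and these genes in their response to toc160 was not tested.

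LPA19, a second PSB27 homologue that acts in maturation of the photosystem II protein D1, read between 0.6249 and 0.797 on toc160 arrays and between 0.474 and 0.583 on WT arrays. These ranges did not overlap, as for the 17.8% of loci named above. Its log2 difference was 0.41 as deposited (limma adjusted p 0.00119), near the median of all loci, and 0.10 after quantile normalization (SE 0.06, adjusted p 0.375). PSB27 itself showed overlapping groups and 0.10 as deposited.

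The remaining 4 list genes carry no symbol in the RefSeq table. AT1G54500, listed for photosystem II assembly, was low on replicates 5 and 6 of both genotypes, at 0.519 and 0.567 in toc160 and 0.668 and 0.624 in WT, while its other arrays lay between 1.03 and 1.12 in toc160 and between 0.978 and 1.06 in WT. Its toc160 minus WT log2 difference was -0.30 (SE 0.27, limma adjusted p 0.603), and of the alternatives run it passed with the replicate number as a block alone (adjusted p 0.024). AT1G74730, listed for membrane formation, had a log2 difference of -0.46 (SE 0.16, adjusted p 0.117) and passed with that block (adjusted p 0.0118). That block counts near-duplicate arrays as separate samples, and so does the fit without a block that gave each SE. On pair averages blocked by pair neither passed (limma adjusted p 0.185 for AT1G54500 and 0.146 for AT1G74730). AT1G22700, listed for photosystem I assembly, had a log2 difference of 0.22 (SE 0.14, adjusted p 0.432), and as deposited 0.48 (adjusted p 0.037). AT1G49380, listed for cytochrome b6f assembly, had a log2 difference of -0.09 (SE 0.09, adjusted p 0.663).

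Replicate pairs were compared for these 7 genes with limma's F-test on 6 pair averages, with genotype as a term. At an adjusted p of 0.05, 0 of the 7 passed, against 13.9% of all loci, and 2 had an unadjusted p under 0.05, against 42.4% of all loci. The lowest adjusted p was 0.0518, for AT1G54500, whose drop on replicates 5 and 6 differs in place from the FZL peak on replicates 1 and 2.

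**Figure D3:**
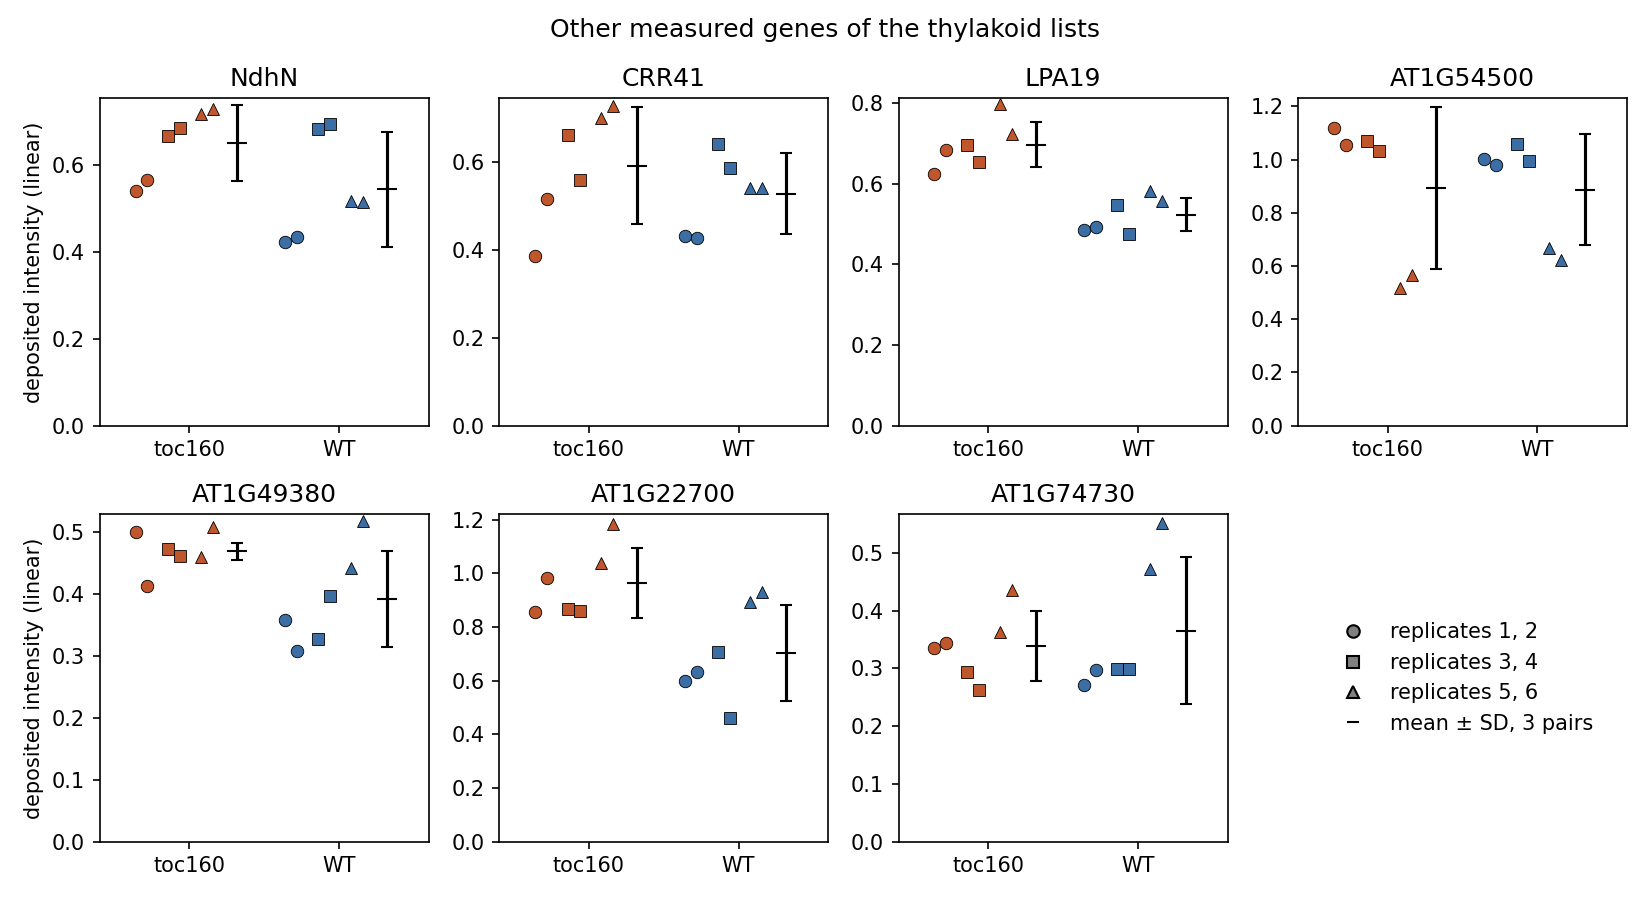
Deposited intensity (linear) on each toc160 and WT array for the 7 other measured genes of the thylakoid lists, with marker shapes for replicate pairs and bars for the mean ± SD of 3 pair averages. The ranges of LPA19 do not overlap between groups, and AT1G54500 is low on replicates 5 and 6 of both genotypes.

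**Figure D4:**
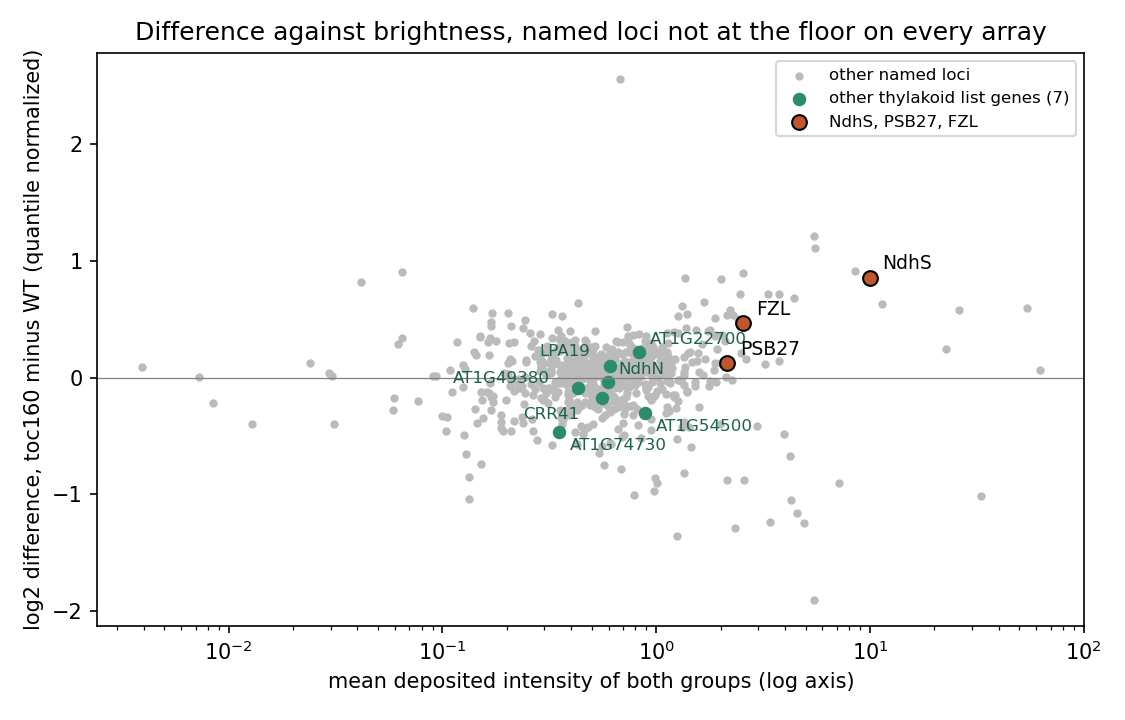
Log2 difference of toc160 minus WT after quantile normalization against mean deposited intensity (log axis) for named loci not at the floor on every array. NdhS lies near the upper edge at 0.86, FZL at 0.47 and PSB27 at 0.12, while the 7 other thylakoid list genes lie between -0.46 and 0.22.

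The loci most like each gene were sought by Pearson's r over the 12 normalized log2 values among 630 loci with no value at the floor. These r values describe 12 arrays that form 6 near-duplicate couples, and they share the genotype difference that the choice of genes used. NdhS was most like AT3G09080 (r 0.98), AT4G13680 (0.95) and AT3G50180 (0.95). Once each genotype's mean was subtracted, these r values were 0.66, 0.74 and 0.62. FZL was most like AT1G17160 (r 0.97), AT1G04420 (0.92) and AT1G50880 (0.92), and here the r values without the genotype means were 0.96, 0.89 and 0.88. AT1G17160 averaged 2.03 in toc160 and 1.46 in WT. PSB27 was most like AT3G50130 (r 0.83), AT3G29185 (0.81) and AT3G49740 (0.80), with 0.84, 0.79 and 0.80 without the genotype means. With each array centred on its median, the r values of these loci with PSB27 were 0.43, 0.33 and 0.70. Those of the loci named for NdhS were then 0.92, 0.59 and 0.72, and those for FZL 0.95, 0.82 and 0.86. Among the 3 genes themselves, NdhS and PSB27 had an r of 0.43 over the 12 arrays and 0.83 without the genotype means. NdhS and FZL had 0.41 and, without the genotype means, -0.74, and FZL and PSB27 had -0.44 and -0.73.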

How the data were processed

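The authors' deposited table gives 1 intensity per probe and array for 3439 probes and 12 arrays. Its scaling, background correction and genome build are not given in the sources used here, so no coordinates are printed. Probes were named through the platform annotation: 692 named 1 gene, of which 690 matched the RefSeq table (TAIR10.1), and they gave 691 loci after probes of 1 locus were averaged.

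Intensities at or below 0.0364 were raised to it, log2 transformed and quantile normalized over all probes. Locus values went into limma's lmFit and eBayes (limma 3.58.1, R 4.3.3) for toc160 minus WT, two-sided and without a block. Benjamini-Hochberg adjustment ran over all loci at 0.05. This main fit counted near-duplicate arrays as separate samples and used no pairing of toc160 with WT arrays. Replicate pairs were compared by limma's F-test on pair averages. That test was planned for the 4 genes too, but is not given for them, because the pairs were in view when they were chosen. The fits were run on simulated data as a check for bias in the differences, and their rate of false calls is not given here. Same-numbered toc160 and WT arrays deviated together (r 0.534 to 0.777 in 6 of 6). Arrays of different numbers were not compared in this way, so whether single numbers pair the samples was not tested. The F-test took the replicate pairs as shared by both genotypes. It called 96 of 691 loci after quantile normalization and 3 as deposited. Named genes are the 4 genes, measured genes of the lists, and the 3 loci most like each gene. The genes and lists were chosen with earlier results of these data known. Other scalings, floors, a pseudocount, averaging, blocks, a filter on dim loci and left-out arrays were tried as alternatives. The number of arrays limits the precision.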

Additional observations from a re-analysis of the deposited data

Results flagged for a closer look

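The 4 genes and the 7 other list genes made 22 groups of 6 arrays, and 1 group held a single array far from its neighbours. No chance rate is given for this, because each group was made of near-duplicate couples of arrays. CCB3 read 0.0172 on toc160 replicate 6, against 0.00573 on the nearest toc160 array, a gap of 0.667 of the group's range. Both values lie under the floor of 0.0364.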

How the results depend on the processing

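The log2 difference of NdhS moved by more than its SD over pairs as deposited (0.55), with median centring (0.23) and with cyclic loess (0.67), and stayed above zero under every alternative run. That of FZL moved with median centring (0.082). That of PSB27 was -0.23 with median centring and -0.038 without replicates 5 and 6. Leaving out 1 array gave 0.83 to 0.90 for NdhS, 0.34 to 0.55 for FZL and 0.07 to 0.22 for PSB27, and 57 to 71 called loci. The 72 calls became 292 as deposited, 12 on pair averages blocked by pair, 3 on unblocked ones, 196 with the replicate block and 116 with the pair block and the dimmest 25% left out. The replicate block also passed AT1G54500 and AT1G74730, which the pair block did not, and of the 7 other list genes no more. The 96 loci called between pairs became 3 as deposited, 314 with median centring, 479 with 12 arrays as samples and 311 without the dimmest loci. For NdhS, replicates 1 and 2 minus the other pairs was 0.10 with median centring and 0.022 as deposited, against -0.12 after quantile normalization; those of FZL and PSB27 moved by less than the SD between genotypes. Uncalled differences changed sign for NdhN (0.27 as deposited, from -0.084 without WT replicate 1 to 0.029 without WT replicate 4 on leaving out 1 array, and 0.096 without replicates 3 and 4), CRR41 (0.15 as deposited) and AT1G49380 (0.28 as deposited, 0.0027 without replicates 5 and 6). The cause was not tested. Of the 3 loci most like each gene, NdhS kept 0 without the genotype means and 0 with median centring, PSB27 1 and 0, and FZL 1 and 1.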
